A study of Mus musculus with 12 samples.

Results

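The 4 libraries described here hold RNA recovered with an antibody to CPEB4 (CPEB4 IP). They were taken by their sample titles from 12 libraries in all, of which the other 8 are 4 of total lysate RNA (Input) and 4 of RNA recovered with a control immunoglobulin (IgG IP). Within CPEB4 IP, replicates 1 and 2 carry library numbers 727 and 730, replicates 3 and 4 carry 394 and 397, and the latter pair was compared with the former. All groups came from 3T3-L1, an immortalized mouse preadipocyte line, so they share 1 cell background. Per the labels, induction up to day 2 used rosiglitazone at 2 µM, insulin at 10 µg/mL, dexamethasone at 1 µM and IBMX at 0.5 mM, and insulin was kept on until day 8. A mixture of free fatty acids at 500 µM, of which palmitic acid made up 300 µM and oleic and linoleic acid 100 µM each, was then applied for 24 h. No group without fatty acids was analysed here, so every library carries that treatment. Poly(A) selection was applied to Input alone, and amplification ran for 12 or 18 cycles without a statement of which library had which number. The labels do not say what sets the 2 runs of library numbers apart, so culture, precipitation, library preparation and amplification cannot be told apart as sources of the split. Nothing in the labels says that replicates came from separate cultures, and p-values therefore measure only the spread between these libraries, which may be technical.

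CPEB4 belongs to the cytoplasmic polyadenylation element binding proteins, which attach to U-rich elements in the 3′ UTR of messenger RNAs and recruit factors that lengthen or shorten the poly(A) tail and so set translation. In RNA immunoprecipitation, a cell lysate is incubated with an antibody and the RNA held by the precipitated protein is sequenced, so the level of an RNA in the precipitate depends on its level in the lysate as well as on its recovery. In liver, CPEB4 has been linked to the translation of mRNAs of the unfolded protein response under lipid load.

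Reads had been counted by the authors per 3′ UTR. CPEB4 IP held 1118341, 1132730, 1159188 and 1114911 counts in replicates 1 to 4, against 88013 to 622976 in IgG IP and 858028 to 1578084 in Input. Levels are given as CPM, counts per 1e6 scaled by TMM, and a list of 4 values runs from replicate 1 to replicate 4. A floor of 3 counts was worth between 2.51 and 3.11 CPM in CPEB4 IP and between 7.86 and 26.1 CPM in IgG IP. These floors account for counting error alone, because amplified reads that carry no molecular identifier can be copies of 1 molecule. Adipocyte markers summed to 28938, 34207, 36426 and 37844 CPM in CPEB4 IP, and Lpl, lipoprotein lipase, stood at 12967, 15301, 12797 and 13339 CPM. Of 19 macrophage markers, 3 were tested, Adgre1, Aif1, C1qa and C1qc had no count in the 4 CPEB4 IP libraries, and the list summed to 79.4, 56.9, 141 and 124 CPM. The 24 endothelial, muscle and neuron markers summed to 35.1, 29.3, 89.6 and 76.8 CPM, with Cldn5, Acta1 and Ckm at 0.

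Of 7388 features tested in the CPEB4 IP libraries, 2130 (28.8%) differed between the library pairs at an adjusted p of 0.05 by edgeR's quasi-likelihood test, and 3023 (40.9%) had an unadjusted p under 0.05. In replicates 3 and 4, 1028 features (13.9%) were higher and 1102 (14.9%) lower. At least 2-fold differences made up 585 of the higher and 529 of the lower calls, and at least 4-fold differences 149 and 86. All 2130 called features had groups that did not overlap, as did 66.1% of all features tested. Chi-square between 2 libraries was computed on raw counts, with expected counts from the library totals and not from TMM. Divided by its degrees of freedom, it was 5.13 for replicates 1 and 2 and 3.61 for replicates 3 and 4. For the 4 pairs that cross the sets it lay between 24.3 and 40.7. These values include the Lars2 feature, which took 7.26%, 4.60%, 17.7% and 23.7% of the counts, and its part in them was not tested. Every one of the 2130 called features that was tested in an alternative setting kept its direction there. The settings reuse the libraries that gave the calls, and the sets of a called feature do not overlap. A kept direction was therefore largely fixed in advance and is no separate support. With all 12 libraries in 1 fit, 0 of the 2130 stayed called. Without replicate 3 or without replicate 4 no feature passed the adjusted threshold, with 1595 and 1755 features at an unadjusted p under 0.05, whereas 2330 and 2248 features passed without replicate 1 and without replicate 2. Scaling by library totals in place of TMM moved the median log2 fold change of all features from 0.00 to -0.21 and gave 673 higher and 1753 lower calls.

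Chemokines and genes of the NF-kappaB pathway were lower in replicates 3 and 4. Of 20 tested members of the list of chemokines, cytokines and NF-kappaB genes, 12 were lower and 1, Rela, was higher (all features: 14.9% lower and 13.9% higher), and the list median was a log2 fold change of -1.41 against 0.00 over all features. Ccl7, a chemokine that attracts monocytes (3′ UTR at mm10 chromosome 11, 82047091 to 82047525), stood at 356, 136, 14.6 and 6.22 CPM (log2 fold change -4.52, SE 0.48, adjusted p = 4.39e-05). Its neighbour Ccl2, the main monocyte chemoattractant, stood at 216, 31.0, 8.23 and 8.30 CPM (log2 fold change -3.89, SE 0.77, adjusted p = 0.00266). Both genes were higher in each of replicates 1 and 2 than in replicates 3 and 4, as was every feature called lower. Replicate 1 held most of the counts of Ccl7 and Ccl2. Without replicate 1 the log2 fold change of Ccl2 was -1.91 and that of Ccl7 -3.68, without replicate 2 that of Ccl2 was -4.71, and without replicate 3 that of Ccl7 was -5.27. Cxcl1, a neutrophil attractant, stood at 219.7, 148, 21.9 and 10.4 CPM (log2 fold change -3.47, SE 0.30, adjusted p = 1.13e-05), with a log2 fold change of -4.12 without replicate 3. Ptx3, a secreted pattern recognition protein of the pentraxin family, stood at 204, 53.6, 6.40 and 5.19 CPM (log2 fold change -4.44, SE 0.64, adjusted p = 0.000307), and its log2 fold change was -3.19 without replicate 1 and -5.12 without replicate 2. Of the 12 lower list members, 11 had a higher value in replicate 1 than in replicate 2, so these libraries did not stand at 1 level for this list. In bulk RNA, fewer cells of a type and less RNA per cell cannot be told apart. The macrophage list summed to 79.4, 56.9, 141 and 124 CPM, of which Lyz1 held 20.1, 10.9, 62.2 and 62.2 CPM. The part of macrophages in the chemokine values was not tested.

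Nfkbia, the inhibitor of NF-kappaB that is itself an NF-kappaB target (chromosome 12, 55489411 to 55489921), stood at 1765, 2203, 336 and 364 CPM (log2 fold change -2.50, SE 0.17, adjusted p = 1.57e-06). Nfkbiz, a nuclear regulator of the same inhibitor family, stood at 150.4, 126, 21.0 and 22.8 CPM (log2 fold change -2.65, SE 0.23, adjusted p = 1.13e-05). The related nuclear cofactor Bcl3 stood at 111, 97.1, 21.9 and 9.34 CPM (log2 fold change -2.70, SE 0.30, adjusted p = 5.93e-05), and its log2 fold change was -3.45 without replicate 3. For these inhibitor family genes replicates 1 and 2 lay close together and far above replicates 3 and 4. Socs3, the feedback inhibitor of cytokine receptor signalling, stood at 320.0, 154, 38.4 and 24.9 CPM (log2 fold change -2.89, SE 0.33, adjusted p = 6.95e-05), with replicate 1 above replicate 2 and a log2 fold change of -2.28 without replicate 1. Of 12 tested interferon response genes, 5 were lower and none higher (all features: 14.9% lower and 13.9% higher). Among the lower was Tap1, a peptide transporter for antigen presentation, at 66.8, 75.3, 24.7 and 24.9 CPM (log2 fold change -1.52, SE 0.25, adjusted p = 0.000753). C3, the central complement component, stood at 67.7, 49.4, 18.3 and 11.4 CPM (log2 fold change -1.95, SE 0.32, adjusted p = 0.000738).

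**Figure D1:**
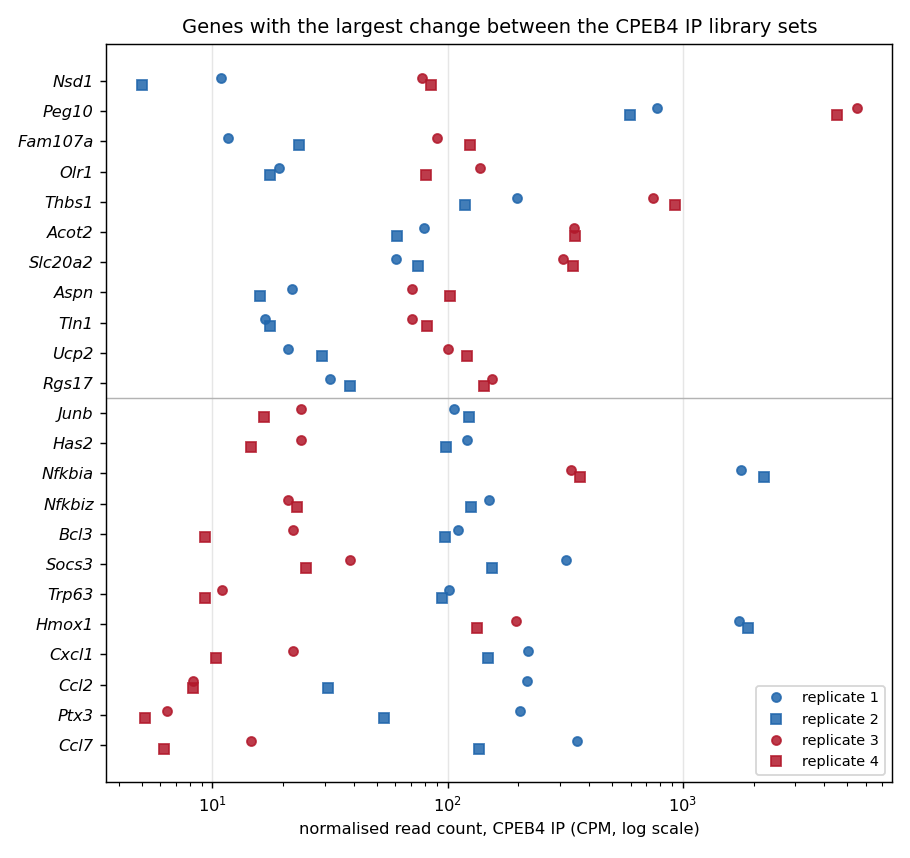
Normalised read count (CPM, log axis) in the 4 CPEB4 IP libraries of the genes named for the largest log2 fold change in each direction, 1 of which is not shown, 1 point per library, with replicates 1 and 2 in blue and replicates 3 and 4 in red. The blue and red points of a gene do not overlap in any row, as in every called feature. Replicate 1 stands well above replicate 2 for Ccl7, Ptx3 and Ccl2.

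Hmox1, heme oxygenase 1, the inducible enzyme that breaks down heme (chromosome 8, 75100020 to 75100596), had the smallest adjusted p in the comparison. It stood at 1739, 1892, 196 and 133 CPM (log2 fold change -3.46, SE 0.19, adjusted p = 6.93e-07). Of 29 tested NRF2 and antioxidant genes, 12 were lower and 4 higher (all features: 14.9% lower and 13.9% higher), with a list median of -0.21. Gclm, a subunit of the enzyme that starts glutathione synthesis, stood at 242, 190.0, 81.4 and 107 CPM (log2 fold change -1.204, SE 0.19, adjusted p = 0.000653). The peroxiredoxin Prdx1 stood at 307, 359, 161 and 149 CPM (log2 fold change -1.10, SE 0.16, adjusted p = 0.000299). Both values of replicates 3 and 4 lay below both values of replicates 1 and 2 in each of these genes, as in every feature called lower. The 4 higher members were Gpx4, Mt1, Sod3 and Cat. Gpx4, the peroxidase that reduces lipid hydroperoxides, stood at 36.8, 61.1, 115 and 122 CPM (log2 fold change 1.28, SE 0.24, adjusted p = 0.00172), and Cat, catalase, at 1699, 2476, 3358 and 4223 CPM (log2 fold change 0.86, SE 0.20, adjusted p = 0.00664).

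Of 38 tested genes of the unfolded protein response and integrated stress response, 15 were lower and 5 higher, with a list median of -0.26. Over all features, 14.9% were lower and 13.9% higher. Hspa5, the chaperone BiP that holds the stress sensors inactive, stood at 314, 351, 155 and 136 CPM (log2 fold change -1.19, SE 0.16, adjusted p = 0.000173). Pdia4, a protein disulfide isomerase, stood at 443, 471, 143 and 108 CPM (log2 fold change -1.86, SE 0.17, adjusted p = 1.23e-05), and its relative Pdia3 at 150.4, 163, 48.5 and 42.5 CPM (log2 fold change -1.78, SE 0.20, adjusted p = 5.47e-05). Each of these chaperone genes had both values of replicates 1 and 2 above both values of replicates 3 and 4, as had every feature called lower. The glycoprotein chaperone genes Canx and Calr were lower too, Canx at 791, 915, 315 and 353 CPM (log2 fold change -1.36, SE 0.15, adjusted p = 5.93e-05) and Calr at 435, 612, 269 and 261 CPM (log2 fold change -0.98, SE 0.17, adjusted p = 0.00130). The Hspa5 cochaperone Dnajb11 stood at 115, 141, 37.5 and 29.0 CPM (log2 fold change -1.94, SE 0.23, adjusted p = 8.23e-05) and the secreted stress protein Manf at 115, 169.9, 44.8 and 42.5 CPM (log2 fold change -1.70, SE 0.23, adjusted p = 0.000218). Pdia6, at 344, 542, 128 and 114 CPM (log2 fold change -1.87, SE 0.21, adjusted p = 5.68e-05), overlaps the feature of Atp6v1c2 on the opposite strand, and its value is uncertain because the strand setting of the counting is not given in the sources used here.

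The 5 members of that list that were higher act elsewhere in the response. Edem1, which directs misfolded glycoproteins to degradation, stood at 486, 583, 842 and 803 CPM (log2 fold change 0.62, SE 0.15, adjusted p = 0.00796). Ddit4, an inhibitor of mTORC1 induced by stress, stood at 175, 192, 340.1 and 242 CPM (log2 fold change 0.67, SE 0.18, adjusted p = 0.0133), and Aldh1l2, a mitochondrial folate enzyme controlled by ATF4, at 24.2, 17.6, 51.2 and 44.6 CPM (log2 fold change 1.195, SE 0.29, adjusted p = 0.00791). Vldlr was higher by 0.45 on the log2 scale. Ddit3, the transcription factor CHOP, stood at 5.85, 8.37, 30.2 and 23.9 CPM (log2 fold change 1.92, SE 0.41, adjusted p = 0.00392), and is uncertain because its feature overlaps that of Mars on the opposite strand. Genes of the list thus differed in both directions, and the response regulators Xbp1 (log2 fold change -0.58, adjusted p = 0.190) and Atf4 (0.20, adjusted p = 0.530) did not pass the threshold.

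Of 20 tested heat shock and chaperone genes, 10 were lower and 1, Fkbp5, higher (all features: 14.9% lower and 13.9% higher), with a list median of -0.64. Hspa1b, an inducible cytosolic chaperone, had the largest difference of the list, at 186, 389, 21.9 and 17.6 CPM (log2 fold change -3.85, SE 0.35, adjusted p = 1.25e-05), and a log2 fold change of -3.24 without replicate 2. Its value is uncertain, because reads may be shared with its paralog Hspa1a, which was not examined, and because its feature overlaps an unnamed feature on the same strand. Hsp90aa1, a cytosolic HSP90, stood at 58.5, 56.9, 21.0 and 27.0 CPM (log2 fold change -1.27, SE 0.26, adjusted p = 0.00332), and the mitochondrial chaperonin Hspd1 at 891, 987, 631 and 593 CPM (log2 fold change -0.62, SE 0.14, adjusted p = 0.00709). Both were lower in each of replicates 3 and 4 than in either of replicates 1 and 2, as was every feature called lower.

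Immediate-early genes are transcribed within minutes of a stimulus and have short-lived mRNAs. Of 30 tested immediate-early and AP-1 genes, 11 were lower and 3 higher (all features: 14.9% lower and 13.9% higher), with a list median of -0.32. Of 9 list members tested in IgG IP, 1 was called lower and 3 higher (all features there: 8.51% and 10.0%). Of the 11 lower in CPEB4 IP, 3 were tested in IgG IP and all 3 were negative there. In Input 6 of the 11 were tested, and 1 had a negative log2 fold change. Of the 3 higher in CPEB4 IP, 2 were tested in IgG IP and 3 in Input, all with a positive log2 fold change. The AP-1 subunit Junb stood at 106, 123, 23.8 and 16.6 CPM (log2 fold change -2.49, SE 0.25, adjusted p = 2.96e-05). Myc stood at 232, 323, 103 and 93.4 CPM (log2 fold change -1.49, SE 0.19, adjusted p = 0.000136), and Cyr61, a secreted matricellular protein, at 134, 198, 38.4 and 31.1 CPM (log2 fold change -2.24, SE 0.24, adjusted p = 5.05e-05). The antiproliferative deadenylation cofactor Btg2 was the most abundant of the 11, at 1822, 2971, 957 and 788 CPM (log2 fold change -1.46, SE 0.21, adjusted p = 0.000347). In each of these genes the sets did not overlap, as in every called feature and in 66.1% of all features tested. Fosl2, another AP-1 subunit, was higher, at 179.6, 191, 397 and 298 CPM (log2 fold change 0.91, SE 0.17, adjusted p = 0.00171), as were Klf6 and the kinase gene Sgk1. Outside the lists, Has2, a hyaluronan synthase, was lower by 2.50 on the log2 scale and Trp63, of the p53 family of transcription factors, stood at 101, 94.6, 11.0 and 9.34 CPM (log2 fold change -3.25, SE 0.28, adjusted p = 1.03e-05).

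Genes of cholesterol supply that passed the threshold were higher in replicates 3 and 4. Of 22 tested genes of cholesterol synthesis and other SREBP2 targets, 11 were higher and none lower (all features: 13.9% higher), and the list median was 0.82. Hmgcs1, which makes the precursor of mevalonate, stood at 468, 522, 939.9 and 979 CPM (log2 fold change 0.96, SE 0.14, adjusted p = 0.000465), and Idi1, an isoprenoid isomerase, at 51.0, 46.0, 115 and 117 CPM (log2 fold change 1.26, SE 0.20, adjusted p = 0.000648). The sterol enzymes Msmo1 and Nsdhl stood at 153, 176, 370.3 and 398 CPM and at 8.36, 7.53, 33.8 and 36.3 CPM (log2 fold change 1.224, SE 0.15, adjusted p = 0.000120 and log2 fold change 2.12, SE 0.37, adjusted p = 0.00118). Insig1, which retains the SREBP complex in the endoplasmic reticulum and is itself an SREBP target, stood at 419, 658, 996 and 1107 CPM (log2 fold change 0.96, SE 0.19, adjusted p = 0.00264). Summed over the 28 listed genes, the level was 1943, 2484, 3942 and 4187 CPM, with every library of replicates 3 and 4 above both others.

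**Figure D2:**
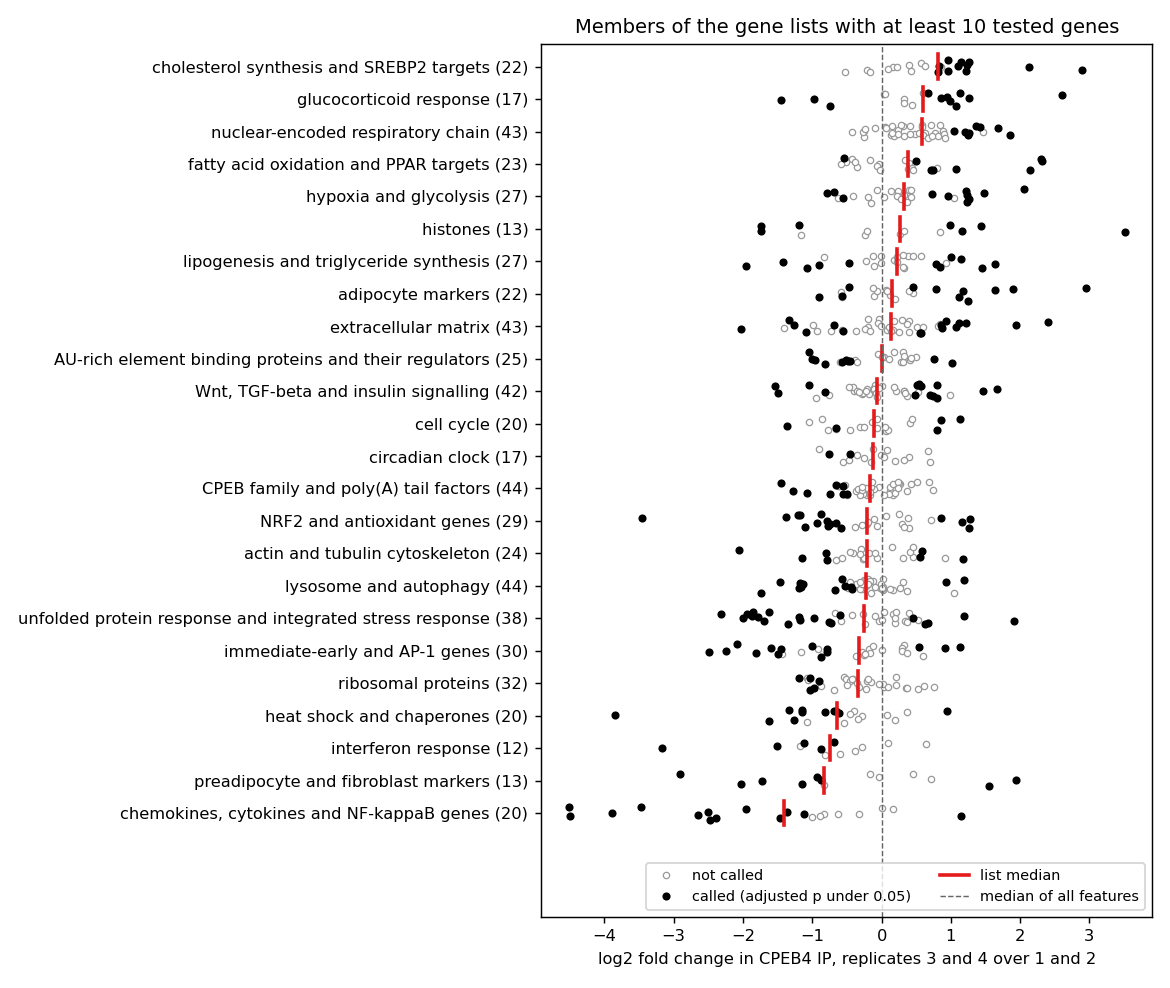
Log2 fold change in CPEB4 IP, replicates 3 and 4 over replicates 1 and 2, of each tested member of the lists with at least 10 tested genes (number tested in parentheses), with filled points for members past an adjusted p of 0.05, red bars for list medians and a dashed line for the median of all 7388 features. Cholesterol genes sit to the right with a median of 0.82, and chemokine and NF-kappaB genes to the left with a median of -1.41.

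Adipocyte genes differed in both directions. Of 22 tested adipocyte markers, 8 were higher and 3 lower (all features: 13.9% higher and 14.9% lower), with a median of 0.16. Plin4, a lipid droplet coat protein, stood at 128, 166, 1043 and 1220.0 CPM (log2 fold change 2.95, SE 0.18, adjusted p = 7.64e-07), and is uncertain because its feature overlaps that of Hdgfrp2 on the opposite strand. Aqp7, the glycerol channel of fat cells, stood at 66.0, 70.3, 249 and 259 CPM (log2 fold change 1.90, SE 0.17, adjusted p = 1.13e-05). The fatty acid transporter Cd36 stood at 886, 1063, 2305 and 2321 CPM (log2 fold change 1.25, SE 0.16, adjusted p = 0.000136), and Gpd1, which makes glycerol phosphate for triglycerides, at 2334, 3481, 6445 and 6661 CPM (log2 fold change 1.17, SE 0.20, adjusted p = 0.00116). All of these had non-overlapping sets, as had every called feature and 66.1% of all features tested. In contrast, the adipokine gene Adipoq stood at 559.8, 557, 383 and 366 CPM (log2 fold change -0.57, SE 0.14, adjusted p = 0.00863) and Cfd, the complement protease adipsin, at 50.1, 33.5, 25.6 and 18.7 CPM (log2 fold change -0.90, SE 0.32, adjusted p = 0.0464). The fatty acid binding protein gene Fabp4 (log2 fold change 0.06, adjusted p = 0.821) and Lpl (-0.11, adjusted p = 0.709) did not pass the threshold.

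Among 27 tested lipogenic genes, 6 were higher and 5 lower (all features: 13.9% higher and 14.9% lower), with a median of 0.22. Called members for different steps of triglyceride synthesis lay on both sides. Agpat2, which makes phosphatidic acid, stood at 196, 329, 834 and 802 CPM (log2 fold change 1.64, SE 0.20, adjusted p = 0.000103), and Lpin1, the phosphatidate phosphatase, at 316, 384, 674 and 530.1 CPM (log2 fold change 0.78, SE 0.16, adjusted p = 0.00370). Dgat2, which adds the last acyl chain, stood at 589.9, 866, 199 and 174 CPM (log2 fold change -1.96, SE 0.19, adjusted p = 2.33e-05). Scd1, the desaturase that makes oleate and 1 of the 5 features with the most counts in CPEB4 IP, stood at 14352, 12162, 5479 and 4444 CPM (log2 fold change -1.42, SE 0.20, adjusted p = 0.000284). Of 23 tested genes of fatty acid oxidation and PPAR targets, 7 were higher and 1, Hadh, lower, with a median of 0.38. Cpt1a, the gatekeeper of mitochondrial fatty acid entry, stood at 12.5, 7.53, 52.1 and 48.8 CPM (log2 fold change 2.32, SE 0.34, adjusted p = 0.000337), the thioesterase Acot2 at 79.4, 61.1, 343 and 349 CPM (log2 fold change 2.30, SE 0.17, adjusted p = 5.43e-06), and the mitochondrial carrier Ucp2 at 20.9, 29.3, 101 and 121 CPM (log2 fold change 2.14, SE 0.24, adjusted p = 6.91e-05).

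Called members of the respiratory chain, hypoxia and glycolysis, and glucocorticoid response lists were higher, with 6 exceptions named here. Of 43 tested nuclear-encoded respiratory chain genes, 8 were higher, which is near the share over all features (13.9%). None was lower (all features: 14.9%), and the list median was 0.59. Of 22 tested in IgG IP, none was called higher and 1 lower (all features there: 10.0% and 8.51%). Their IgG IP median was 0.38, with 14 positive and 8 negative log2 fold changes. Of the 8 genes higher in CPEB4 IP, 3 were tested in IgG IP and all 3 were positive there. In Input 55 of 78 list members had a negative log2 fold change, and 3 of those 8 genes were positive. Cycs, cytochrome c, stood at 61.8, 65.3, 164 and 129 CPM (log2 fold change 1.203, SE 0.20, adjusted p = 0.000753), and Uqcrq, a small subunit of complex III, at 6.68, 10.9, 29.3 and 35.3 CPM (log2 fold change 1.86, SE 0.39, adjusted p = 0.00349). Of 27 genes of hypoxia and glycolysis, 8 were higher and 3 (Vegfa, P4ha1 and Slc2a1) lower, with a median of 0.32. Egln3, an oxygen-sensing prolyl hydroxylase, stood at 49.3, 42.7, 222 and 159 CPM (log2 fold change 2.05, SE 0.21, adjusted p = 3.94e-05), and Ldha at 38.4, 38.5, 133 and 79.9 CPM (log2 fold change 1.47, SE 0.26, adjusted p = 0.00130). Vegfa, the vascular growth factor, stood at 2289, 2424, 1474 and 1252 CPM (log2 fold change -0.79, SE 0.16, adjusted p = 0.00278). Of 17 glucocorticoid response genes, 8 were higher and 3 (Errfi1, Cebpb and Glul) lower, with a median of 0.60. Fam107a, an actin-binding protein induced by glucocorticoids, stood at 11.7, 23.4, 90.5 and 124 CPM (log2 fold change 2.60, SE 0.30, adjusted p = 7.63e-05), and Fkbp5, a chaperone of the glucocorticoid receptor, at 216, 469, 735 and 582 CPM (log2 fold change 0.95, SE 0.26, adjusted p = 0.0163). Without replicate 2 the log2 fold change of Fkbp5 was 1.59.

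The most abundant gene among the leading increases was Peg10, a paternally expressed gene derived from a retrotransposon (chromosome 6, 4755352 to 4760517), at 775, 597, 5486 and 4514 CPM (log2 fold change 2.87, SE 0.19, adjusted p = 1.57e-06). Nsd1, a histone methyltransferase, had the largest log2 fold change under the rule for named genes, at 10.9, 5.02, 77.7 and 85.1 CPM (log2 fold change 3.34, SE 0.33, adjusted p = 2.33e-05), on 13, 6, 85 and 82 counts, and its log2 fold change was 3.97 without replicate 1. Olr1, a scavenger receptor for oxidized low density lipoprotein, stood at 19.2, 17.6, 137 and 80.9 CPM (log2 fold change 2.57, SE 0.30, adjusted p = 7.50e-05). The phosphate transporter Slc20a2 stood at 60.2, 74.5, 310.0 and 341 CPM (log2 fold change 2.27, SE 0.17, adjusted p = 5.43e-06) and the signalling regulator Rgs17 at 31.8, 38.5, 155 and 143 CPM (log2 fold change 2.08, SE 0.21, adjusted p = 2.63e-05). Tln1, which links integrins to actin, was higher by 2.14 on the log2 scale and Aspn, a matrix proteoglycan, by 2.19.

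Extracellular matrix genes numbered 10 higher and 6 lower of 43 tested (all features: 13.9% higher and 14.9% lower), with a median of 0.14. Thbs1, a secreted glycoprotein that binds matrix and activates TGF-beta, stood at 196, 119, 749.7 and 924 CPM (log2 fold change 2.41, SE 0.21, adjusted p = 1.13e-05). The collagen gene Col3a1 stood at 105, 38.5, 263 and 290.5 CPM (log2 fold change 1.94, SE 0.29, adjusted p = 0.000457), with replicate 2 below replicate 1 and a log2 fold change of 2.82 without replicate 1. Serpinh1, the collagen chaperone of the endoplasmic reticulum, was lower, at 759, 743, 272 and 324 CPM (log2 fold change -1.33, SE 0.15, adjusted p = 5.93e-05), as was the prolyl hydroxylase subunit P4hb, at 314, 228, 142 and 113 CPM (log2 fold change -1.08, SE 0.19, adjusted p = 0.00129). Of 13 tested preadipocyte and fibroblast markers, 6 were lower and 2 (Col3a1 and Prrx1) higher, with a median of -0.83. Pdgfra, the receptor that marks fat precursors, stood at 91.9, 46.9, 35.7 and 37.3 CPM (log2 fold change -0.93, SE 0.31, adjusted p = 0.0371). Replicate 1 exceeded replicate 2 in 5 of the 6 lower markers, and the whole list of 23 genes summed to 680 CPM in replicate 1, 393 in replicate 2, 639 in replicate 3 and 661 in replicate 4.

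The CPEB genes themselves did not pass the threshold. Cpeb4 (chromosome 11, 31931533 to 31935634) stood at 1787, 1637, 1866 and 2261 CPM (log2 fold change 0.27, SE 0.16, adjusted p = 0.227), a range in which replicate 3 was close to replicate 1. Cpeb2 had a log2 fold change of 0.37 (adjusted p = 0.147) and Cpeb3 of 0.16 (adjusted p = 0.414), the latter -0.05 when scaled by library totals. Cpeb1, best known from oocytes, was too low to be tested, at 5, 5, 8 and 14 counts. Of 44 tested CPEB family and poly(A) tail factors, none was higher and 8 were lower (all features: 14.9% lower), with a median of -0.16. Those 8 were Btg2, Paip2b, Papd5, Cnot8, Paip2, Cnot6, Cpsf4 and Tob1. Paip2b, an inhibitor of the poly(A) binding protein, stood at 251, 260.4, 112 and 99.6 CPM (log2 fold change -1.27, SE 0.16, adjusted p = 0.000131), and Papd5, a noncanonical poly(A) polymerase, at 539, 468, 269 and 206 CPM (log2 fold change -1.08, SE 0.16, adjusted p = 0.000474). Among 25 tested AU-rich element binding proteins and their regulators, 8 were lower and 2 (Qk and Khsrp) higher (all features: 14.9% lower and 13.9% higher). Zfp36, tristetraprolin, which triggers deadenylation of cytokine mRNAs, stood at 347, 383, 186 and 179 CPM (log2 fold change -0.997, SE 0.15, adjusted p = 0.000409), and the stress granule protein G3bp1 at 1701, 2012, 911 and 988 CPM (log2 fold change -0.97, SE 0.16, adjusted p = 0.000713). Qk, the RNA-binding protein quaking, stood at 524, 486, 1011 and 1030.2 CPM (log2 fold change 1.02, SE 0.14, adjusted p = 0.000282).

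Counts of the other lists stand beside 13.9% higher and 14.9% lower over all features tested. Lysosome and autophagy genes were lower in 11 and higher in 2 of 44, with Atp6ap2, a proton pump accessory protein, at 142, 126, 43.0 and 37.3 CPM (log2 fold change -1.73, SE 0.21, adjusted p = 9.07e-05). Wnt, TGF-beta and insulin signalling genes were higher in 10 and lower in 4 of 42, with the kinase gene Gsk3b at 601, 535, 941 and 953 CPM (log2 fold change 0.74, SE 0.14, adjusted p = 0.00250). Ribosomal protein genes were lower in 5 and higher in none of 32. Histone genes were higher in 4 and lower in 3 of 13, and the replacement histone gene H3f3b stood at 1394, 1457, 415 and 439 CPM (log2 fold change -1.74, SE 0.15, adjusted p = 1.03e-05). The actin and tubulin list had 3 higher and 4 lower of 24, the cell cycle list 3 higher and 2 lower of 20, and the circadian clock list 2 lower of 17. The brown adipocyte list had 1 higher of 4, Ppargc1a, the mitochondrial coactivator, at 178, 218, 345 and 373 CPM (log2 fold change 0.86, SE 0.16, adjusted p = 0.00154). The single call among 3 tested macrophage markers was Lyz1, whose reads can be shared with the near-identical Lyz2, and the single tested marker of endothelium, muscle or neurons was Des, also higher.

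The same split in IgG IP showed how far the control precipitate differed between the library sets. Of 2972 features tested there, 551 (18.5%) differed, 298 (10.0%) higher and 253 (8.51%) lower in replicates 3 and 4. Of the features higher in CPEB4 IP, 546 were tested in IgG IP, where 505 had a positive log2 fold change (92.5%, against 50.8% of all 2962 features tested in both), 205 were called higher and none was called lower. Of the features lower in CPEB4 IP, 526 were tested there, 464 had a negative log2 fold change (88.2%, against 49.2%), 168 were called lower and none higher. Seen from the other side, 373 of the 547 IgG IP calls that were tested in CPEB4 IP were called there in the same direction (68.2%). Over these 2962 features both sets of log2 fold changes correlated with r = 0.705 (Pearson), a description over genes and not over replicates. Scaled by library totals, IgG IP gave 19 higher and 1893 lower calls, and 419 of the 551 kept their sign. Leaving out IgG IP replicates 1, 2, 3 and 4 in turn gave 209, 279, 205 and 187 calls.

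Some named genes passed in both precipitates. Hmox1 stood at 862, 836, 134 and 73.4 CPM in IgG IP (log2 fold change -3.11, SE 0.28, adjusted p = 5.85e-11) and Nfkbia at 101, 113, 13.9 and 31.4 CPM (log2 fold change -2.08, SE 0.49, adjusted p = 0.00227). Cxcl1 had 20 counts in IgG IP replicates 1 and 2 together and 3 in replicates 3 and 4, a ratio of 14.6 (95% interval 4.33 to 76.8, exact, counting error only). The chaperone genes Hspa5 and Canx were lower by 1.90 and 2.32 on the log2 scale in IgG IP (adjusted p = 0.000513 and 1.98e-08). In the other direction, Peg10 stood at 1109, 862, 5700.0 and 4144 CPM (log2 fold change 2.31, SE 0.22, adjusted p = 1.04e-10), Plin4 at 177, 139, 927 and 930.0 CPM (log2 fold change 2.53, SE 0.27, adjusted p = 2.45e-09), and Msmo1 at 12.7, 52.2, 83.4 and 91.7 CPM (log2 fold change 1.56, SE 0.55, adjusted p = 0.0413). Other genes called in CPEB4 IP did not pass in IgG IP. Of these, Thbs1, Col3a1 and Aqp7 also did not pass the interaction test of both splits given below (adjusted p = 0.250, 0.0585 and 0.227). Thbs1 stood at 101, 43.5, 134 and 152 CPM in IgG IP, with a log2 fold change of 0.92 (adjusted p = 0.107), Col3a1 at 158, 26.1, 88.0 and 78.6 CPM (log2 fold change -0.29, SE 0.45, adjusted p = 0.697), and Aqp7 at 31.7, 78.3, 60.2 and 47.2 CPM (log2 fold change 0.01, SE 0.51, adjusted p = 0.993). Lpl, which did not pass in CPEB4 IP, was called lower in IgG IP, at 14807, 20262, 7354 and 7023 CPM (log2 fold change -1.29, SE 0.18, adjusted p = 2.17e-06). Its splits differed by 1.17 between these fractions, which did not pass the main interaction test (adjusted p = 0.183). Once same-numbered libraries were blocked, Lpl and Col3a1 both passed that test (adjusted p = 0.000737 and 0.00662).

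**Figure D3:**
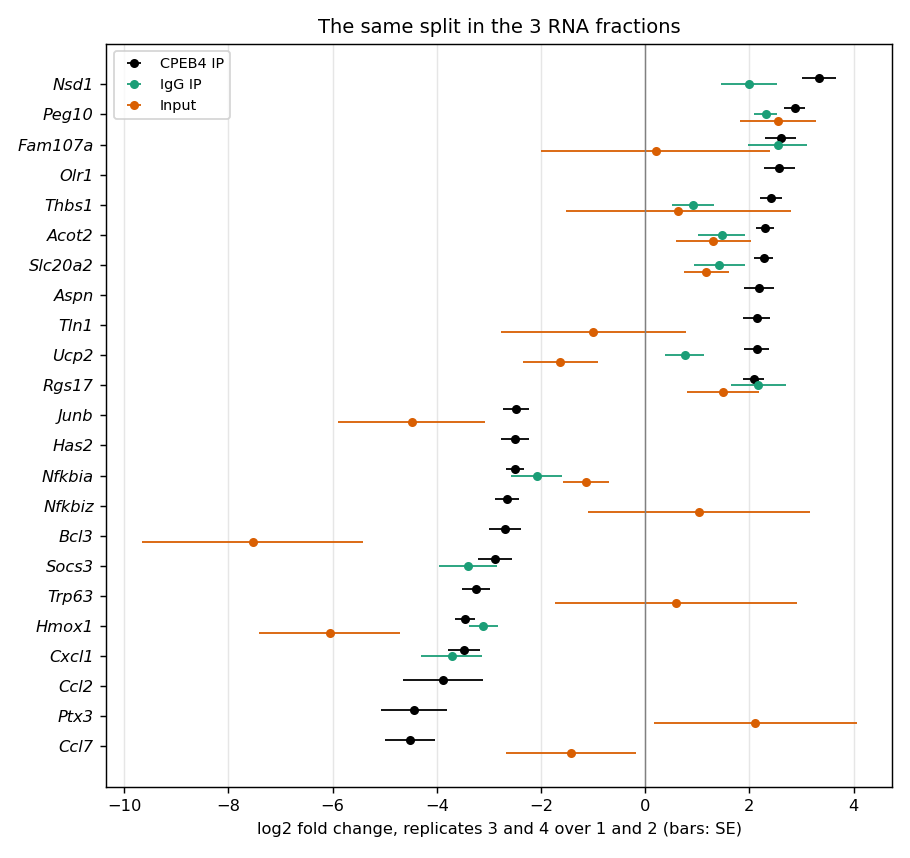
Log2 fold change, replicates 3 and 4 over replicates 1 and 2, of the same leading genes in CPEB4 IP, IgG IP and Input, with bars of 1 standard error, and no point where the gene was too low to be tested in that fraction. Hmox1 lies at -3.46 in CPEB4 IP and -3.11 in IgG IP, and Peg10 at 2.87 and 2.31, while the Input bars are wide.

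In Input the split gave no call among 8681 features tested by edgeR's quasi-likelihood test (0%), with 1452 (16.7%) at an unadjusted p under 0.05 and 498 calls by DESeq2's Wald test. The spread between Input replicates was larger, with a biological coefficient of variation of 0.801 against 0.122 in CPEB4 IP and 0.135 in IgG IP. Leaving out Input replicates 1, 2, 3 and 4 in turn gave 13, 6, 635 and 2320 calls. Of the features higher in CPEB4 IP and tested in Input, 634 of 870 had a positive log2 fold change (72.9%, against 47.4% of all 6109 features tested in both), and of those lower, 660 of 942 had a negative one (70.1%, against 52.6%). The log2 fold changes had a Pearson r of 0.323 across these 6109 features, and of 0.429 across the 2792 with a mean of at least 50 counts in Input. Hspa5 stood at 416, 489.5, 56.2 and 68.0 CPM in Input (log2 fold change -2.86, SE 0.37, adjusted p = 0.211), and Scd1 at 2687, 2505, 728 and 936 CPM (log2 fold change -1.64, SE 0.39, adjusted p = 0.211). In both genes the Input sets did not overlap, as in 54.1% of all features tested in Input, and neither passed the threshold. Agpat2 stood at 746, 796, 1716 and 3006 CPM (log2 fold change 1.61, SE 0.45, adjusted p = 0.211). C3 stood at 5211, 9043, 917 and 1494 CPM (log2 fold change -2.56, SE 0.57, adjusted p = 0.211), with both libraries of replicates 3 and 4 below both others. Of 23 cholesterol list genes tested in Input, 12 had a positive and 11 a negative log2 fold change, and of the 8 called in CPEB4 IP and tested in Input, 4 were positive. Msmo1 stood at 17.8, 9.71, 10.5 and 11.3 CPM in Input with a log2 fold change of -0.34 (adjusted p = 0.952), and Hmgcs1 at 105, 175, 60.0 and 108 CPM (log2 fold change -0.73, SE 0.51, adjusted p = 0.568). For neither gene did the split differ between CPEB4 IP and Input by the interaction test given below. The differences were 1.78 (adjusted p = 0.295) for Msmo1 and 1.80 (adjusted p = 0.246) for Hmgcs1.

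**Figure D4:**
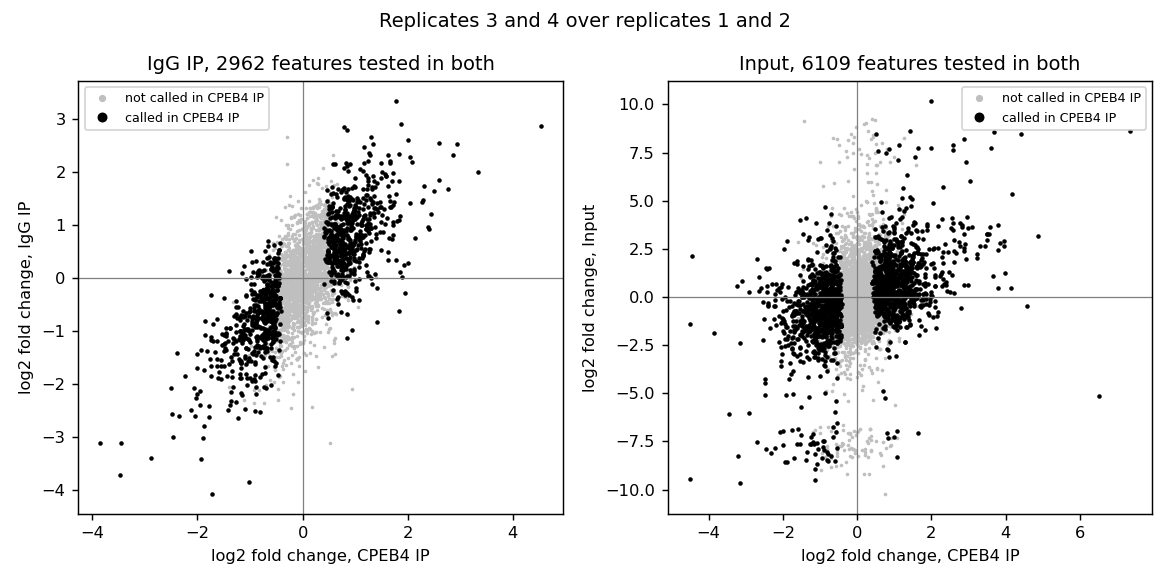
Log2 fold change in IgG IP (left) and Input (right) against that in CPEB4 IP, replicates 3 and 4 over replicates 1 and 2, with 1 point per feature tested in both. The points follow a common line in the left panel (r = 0.705 over 2962 features) more closely than in the right panel (r = 0.323 over 6109 features), where groups of points far from 0 are features without a count in some Input libraries.

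Whether the split itself differed between CPEB4 IP and IgG IP was tested with an interaction of fraction and library set over the 8 precipitate libraries. Of 7590 features, 3 (0.0395%) passed, 2 with a positive (0.0264%) and 1 with a negative difference (0.0132%), and 686 (9.04%) were at an unadjusted p under 0.05. This main test did not treat same-numbered libraries as a block. With that block 19 features passed, 8 positive and 11 negative, and these 3 were among them. Cpm, a membrane carboxypeptidase that neighbours Mdm2, was higher in CPEB4 IP replicates 3 and 4, at 94.4, 98.8, 441 and 296 CPM (log2 fold change 1.93, SE 0.20, adjusted p = 3.01e-05). In IgG IP it stood at 310.5, 496, 639.5 and 322 CPM, with a log2 fold change of 0.24, and the difference of splits was 1.71 (SE 0.34, adjusted p = 0.0155). Pabpn1, the nuclear poly(A) binding protein, stood at 127, 168, 106 and 135 CPM in CPEB4 IP and at 19.0, 8.70, 116 and 81.2 CPM in IgG IP, a difference of splits of -2.99 (SE 0.66, adjusted p = 0.0369), on 3, 1, 25 and 31 counts in IgG IP. Its feature overlaps that of Gm20521 on the same strand, so its counts are uncertain. Slc1a2, a glutamate transporter, had 2, 0, 17 and 13 counts in CPEB4 IP and 4, 11, 7 and 7 in IgG IP, with a difference of splits of 5.07 (SE 1.10, adjusted p = 0.0369). Its ratio in CPEB4 IP was 17.4 (95% interval 4.42 to 151, exact, counting error only). In CPEB4 IP it reached the minimum count through replicates 3 and 4 alone, where it was high. That ratio is therefore a description and no separate support. Over the alternative settings Cpm passed in 10 of 21, Pabpn1 in 7 of 21 and Slc1a2 in 8 of 19, and the direction of each was kept throughout. The difference of splits ranged from 1.21 to 2.66 for Cpm, from -4.02 to -2.04 for Pabpn1 and from 3.04 to 8.14 for Slc1a2. The log2 fold change of Slc1a2 in CPEB4 IP was 6.98 without replicate 1 and 3.02 without replicate 2. Leaving out CPEB4 IP replicates 1 to 4 in turn gave 8, 2, 0 and 2 differences, and leaving out IgG IP replicates 1 to 4 gave 2, 1, 19 and 1. For Input the same test gave no call among 10077 features (0%), with 1354 (13.4%) at an unadjusted p under 0.05 and 367 calls by DESeq2's Wald test. Without Input replicate 3 it gave 437 calls and without Input replicate 4 it gave 2817.

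The sets also differed in how many features were seen at all. At nearly equal totals, CPEB4 IP had a count in 12697 and 11746 features in replicates 1 and 2 and in 16434 and 15312 in replicates 3 and 4. Thinned to 1114911 counts each, the numbers were 12693, 11712, 16352 and 15312. Replicates 3 and 4 both counted 1976 features that had no count in replicates 1 and 2, holding 0.446% of their counts, whereas 76 features were counted in both replicates 1 and 2 and in neither of the others. The same numbers were 1734 and 86 in IgG IP and 677 and 638 in Input, at unequal totals. IgG IP replicates 3 and 4 together held a count for 1309 of the 1976. Of the 1976, 89 reached 5 counts in each of replicates 3 and 4, and among them the calcium pump gene Atp2a3 had the most, 38 counts in all. IgG IP detected 9109, 8653, 12677 and 12608 features and Input 11404, 8931, 10186 and 10475, at unequal totals. Lars2, the mitochondrial leucyl-tRNA synthetase, whose feature held the most counts in CPEB4 IP, took 7.26%, 4.60%, 17.7% and 23.7% of the counts (log2 fold change 2.05, SE 0.35, adjusted p = 0.000982). In IgG IP it took 28.6%, 29.7%, 63.9% and 63.1% of the counts (log2 fold change 2.28, SE 0.16, adjusted p = 1.03e-14), and in Input 12.2%, 14.1%, 7.79% and 7.99% (log2 fold change -1.02, SE 1.13, adjusted p = 0.743). Without Lars2 in the table, 2240 of 7496 features passed in CPEB4 IP in place of 2130 of 7388, and its part in the other differences was not tested.

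The median difference varied with the length of the 3′ UTR. By quartile of length, from 4 to 786 bases up to 2604 to 23858 bases, the median log2 fold change in CPEB4 IP was -0.13, -0.06, -0.01 and 0.18. In the shortest quartile 8.33% of features were higher and 16.7% lower, and in the longest 22.2% were higher and 10.7% lower. The medians over the same quartiles were -0.27, -0.23, -0.07 and 0.26 in IgG IP and -0.73, -0.32, 0.12 and 0.89 in Input. Among features with a mean of at least 50 counts, the CPEB4 IP medians were -0.22, -0.17, -0.10 and 0.07. Lengths varied within the leading genes of both directions, from 275 bases for Ccl2 to 3064 for Trp63 among the lower and from 441 for Tln1 to 7290 for Rgs17 among the higher. The part of length in the values of single genes was not tested.

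**Figure D5:**
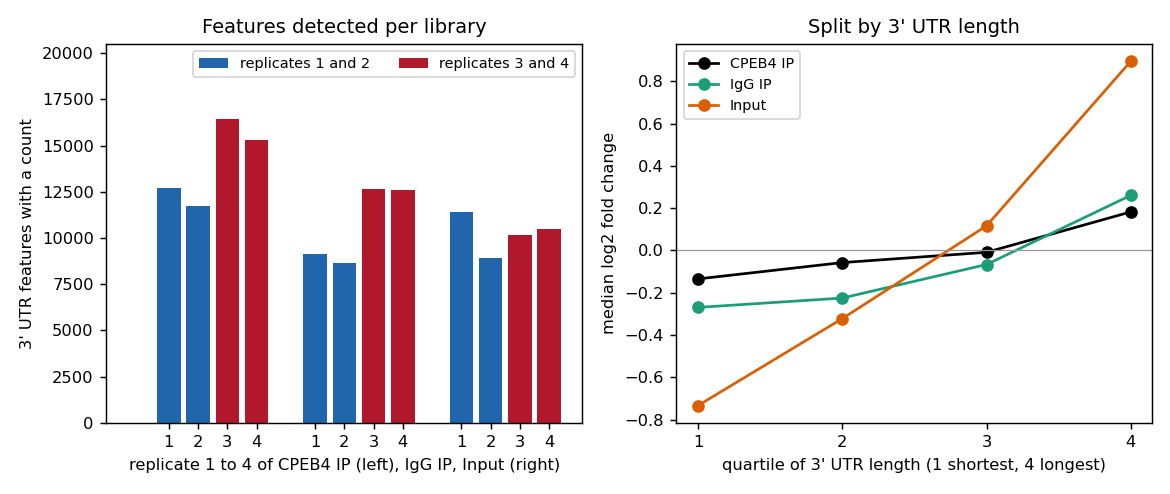
Left, the number of 3′ UTR features with a count in each library of CPEB4 IP, IgG IP and Input, with replicates 1 and 2 in blue and replicates 3 and 4 in red; right, the median log2 fold change, replicates 3 and 4 over replicates 1 and 2, by quartile of 3′ UTR length. CPEB4 IP bars reach 12697 and 11746 against 16434 and 15312, and all 3 lines rise with length.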

How the data were processed

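The authors deposited 1 table of raw counts, with a column for each library and a row for each of 20586 3′ UTR features in mm10 coordinates, named by Ensembl transcript and by symbol. The tools on record, per the submitters' processing notes, are featureCounts, DESeq2 1.22.1, Bowtie2 2.2.2 and Bowtie 1.2.3, with the mm10 build. How the steps were ordered, the annotation release and the strand setting are not given in the sources used here. The 12 log2 columns and the authors' comparisons in the table were not used. Feature coordinates and lengths are those the authors deposited. The 697 features without a symbol, which took 0.507% to 2.23% of each library, were tested but are not named.

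The deposited counts of the 4 libraries of 1 fraction were fitted in R 4.3.3 with edgeR 4.0.16 (TMM, filterByExpr at min.count 10 and min.total.count 15, quasi-likelihood test). A feature with few counts could pass this filter through the library set where it was high, as Slc1a2 did in CPEB4 IP. Benjamini-Hochberg adjustment ran over all features tested, at 0.05, and every adjusted p in the text is from that test if no other tool is given. Fold changes are replicates 3 and 4 over replicates 1 and 2, and a standard error is the size of the log2 fold change divided by the square root of F. Differences between fractions were tested as an interaction over the 8 libraries of both. The tests within a fraction were run on simulated counts with a common spread for all features. The interaction tests were not run on simulated counts. Replicate numbers were not taken to pair libraries across fractions in the main tests, although same-numbered libraries carry neighbouring library numbers.

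The library split and the 27 gene lists were chosen with earlier results of these data known. Named are the 12 genes with the largest log2 fold change in each direction, among called, non-overlapping features with a symbol and a mean at or above the median. Added are up to 3 members of each list and direction with the smallest adjusted p, Cpeb1 to Cpeb4 and Lars2, the 5 features with the most counts, and the features past a difference of splits. Other list members were named after their values were seen. A gene with several features is represented by the one with the most counts. Alternatives changed the scaling, the filter, the tool (DESeq2 1.42.0), the libraries in the fit and the depth. A few named genes are not reported here, though counts, medians and sums include them. Sequences of the 3′ UTRs were not used here.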

Additional observations from a re-analysis of the deposited data

Results flagged for a closer look

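The split between replicates 3 and 4 and replicates 1 and 2 differed between CPEB4 IP and IgG IP for 3 genes by the interaction test of edgeR. With the replicate number as a block, 19 passed. For Cpm, a membrane carboxypeptidase, the difference of log2 fold changes was 1.71 (adjusted p = 0.0155), with CPEB4 IP at 113, 118, 482 and 285 counts and IgG IP at 49, 57, 138 and 123. For Slc1a2, a glutamate transporter, it was 5.07 (adjusted p = 0.0369), on 32 counts in the 4 CPEB4 IP libraries, 30 of them in replicates 3 and 4. For Pabpn1, the nuclear poly(A) binding protein, it was -2.99 (adjusted p = 0.0369), with IgG IP at 3, 1, 25 and 31 counts against 152, 201, 116 and 130 in CPEB4 IP.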

How the results depend on the processing

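The count of calls in the CPEB4 IP split, 2130, was 2153 with DESeq2's size factors, 2426 with library totals, 2240 without Lars2 in the table, 2891 without a filter and 2101 with thinned libraries. It was 1393 among features with a mean of at least 50 counts, where fewer features were tested, and 1016 with DESeq2's Wald test. With all 12 libraries in 1 fit it was 0 of 10955 features tested. That fit takes its spread, filter and scaling from all fractions. Without replicates 1 to 4 in turn it ranged from 0 to 2330. The 551 IgG IP calls became 544 with DESeq2's size factors, 489 without Lars2, 1912 with library totals, 139 at a mean of at least 50, 204 without a filter, 124 with DESeq2's Wald test and 0 with all 12 libraries, and ranged from 187 to 279 without 1 replicate. The Input split, with 0 calls, gave 240 at a mean of at least 50, 315 without a filter, 498 with DESeq2's Wald test and 1180 with all 12 libraries, and ranged from 6 to 2320 without 1 replicate. The 3 differences from IgG IP became 845 with library totals (842 positive), 1 without Lars2, 0 at a mean of at least 50 and 1 without a filter. They numbered 16 with DESeq2's Wald test, 0 with all 12 libraries and 19 with the replicate number as a block. Same-numbered libraries share a replicate number and carry neighbouring library numbers. Their deviations had an r of 0.122 and 0.150 in the library sets, above the limit of 0.1 set for this check. The differences from Input, 0 in the interaction test, numbered 11 without a filter, 367 with DESeq2's Wald test and 90 with all 12 libraries, ranged from 0 to 2817 without 1 library, and stayed at 0 with the replicate number as a block (r = 0.113 and -0.002). Of 136 named genes with a test, 131 lost the call with all 12 libraries, without replicate 3 and without replicate 4, and 22 lost it with DESeq2's Wald test. Cpeb3 alone changed sign, to -0.0511, with library totals, and it passed in no main test. A lone library in a set is assumed to vary like the other set. The cause of these changes was not tested. Depth limits IgG IP most, where 2972 features could be tested against 7388 in CPEB4 IP.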
